A study of Oryza sativa with 16 samples.

Results

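Open chromatin of rice seedlings was compared between 2 h and 6 h of salt stress. The comparison covered every peak of both salt lists, 97058 at 2 h and 87437 at 6 h, which together are 184495 of the 695463 peaks in the 7 lists of the series. Peaks were matched where they shared at least 1 bp. A 2 h peak with a partner at 6 h is called persisting and a 2 h peak without one is called closed, while a 6 h peak without a partner at 2 h is called new. Closed therefore means that no peak was listed at 6 h, not that no reads were left there. The seedlings were Oryza sativa L. Japonica, cultivar Nipponbare, grown at 28 °C to an age of 14 days. NaCl at 250 mM was then given for either 2 h or 6 h, and seedlings without salt were the control. Cold (4 °C for 12 h or 24 h) and heat (42 °C for 30 min or 3 h) were the other treatments. Each condition had 2 replicate libraries, but the authors deposited 1 peak list per condition, so the spread between replicates is unknown for all values below and no tests were run. The 95% Wilson intervals of shares cover counting error only.

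FAIRE-seq separates crosslinked, sheared chromatin by phenol extraction. DNA that is not bound in nucleosomes stays in the aqueous phase, so stretches rich in reads mark open chromatin, typically promoters and enhancers. Salt acts on rice as an osmotic stress within minutes to hours and as an ionic stress when sodium accumulates in the shoot, and seedlings answer both with changes in transcription. Genes were not assigned to the peaks, because positions of genes on the build of the files, IRGSP 1.0, were not used here.

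Open chromatin contracted between the time points. Of the 97058 peaks at 2 h, 83008 (85.5%) persisted and 14050 closed, a share of 14.5% (95% interval 14.3% to 14.7%). In the other direction, 2362 of the 6 h peaks were new, which is 2.70% (2.60% to 2.81%). Covered length decreased by 12.4 Mb, from 81.0 Mb at 2 h to 68.6 Mb at 6 h. The loss amounted to 15.1 Mb and the gain to 2.70 Mb, and 65.9 Mb was open at both times. Most of the lost bases did not lie in closed peaks. Closed peaks held 5.08 Mb of them (33.5%), matched peaks that had each other as their sole partner held 8.18 Mb (54.0%), and peaks that broke up held 1.81 Mb (12.0%). New peaks made up 0.689 Mb, or 25.5%, of the gained bases, and the remaining 2.01 Mb lay in 6 h peaks that overlapped a 2 h peak, at its margins or, in the 672 peaks at 6 h that spanned 2 or more 2 h peaks, also between them. The length of the lists bears on these values. With only the 87437 peaks of highest fold enrichment kept at 2 h, as many as at 6 h, 11.5% of the 2 h peaks closed, 9.04% of the 6 h peaks were new and covered length decreased by 6.49 Mb. The sequencing depth behind each list cannot be read from the files, and the study lists fewer mapped reads in all for salt 6 h than for salt 2 h. The part of depth in the contraction was not tested.

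The contraction was of like size on all chromosomes. The share of closed peaks ran from 13.8% on chromosome 4 to 15.5% on chromosome 11, with a median of 14.5% and an SD of 0.608 percentage points over the 12 chromosomes. Chromosome 11 alone had an interval (14.6% to 16.4%) that lay above the share of the whole genome, and no chromosome had one below it. Chromosomes 11 and 12 also had the narrowest peaks at 2 h, with median widths of 608 and 595.5 bp against 681 bp on chromosome 3. When the shares were weighted to the same mix of peak widths, a step added after the data were seen, chromosome 11 stood at 14.5% and chromosome 12 at 13.7%, and the range over the chromosomes was 13.7% to 15.2%. Covered length fell on every chromosome, by between 14.8% on chromosome 10 and 16.3% on chromosome 2. Of the bases open at 2 h, 79.7% on chromosome 11 and 82.3% on chromosome 1 were still open at 6 h, the lowest and highest values. In bases, chromosome 1 decreased by 1.51 Mb, from 10.2 to 8.68 Mb, and chromosome 10 decreased by 0.723 Mb, from 4.88 to 4.16 Mb, the largest and smallest losses. New peaks made up 2.24% of the 6 h peaks on chromosome 1, 2.39% on chromosome 2 and 2.13% on chromosome 3, but between 2.80% and 3.25% on the other 9. The intervals of chromosomes 1 and 3 lay below the genome share and that of chromosome 12 above it. All chromosomes come from the same libraries, so they are not replicates of the treatment.

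**Figure D1:**
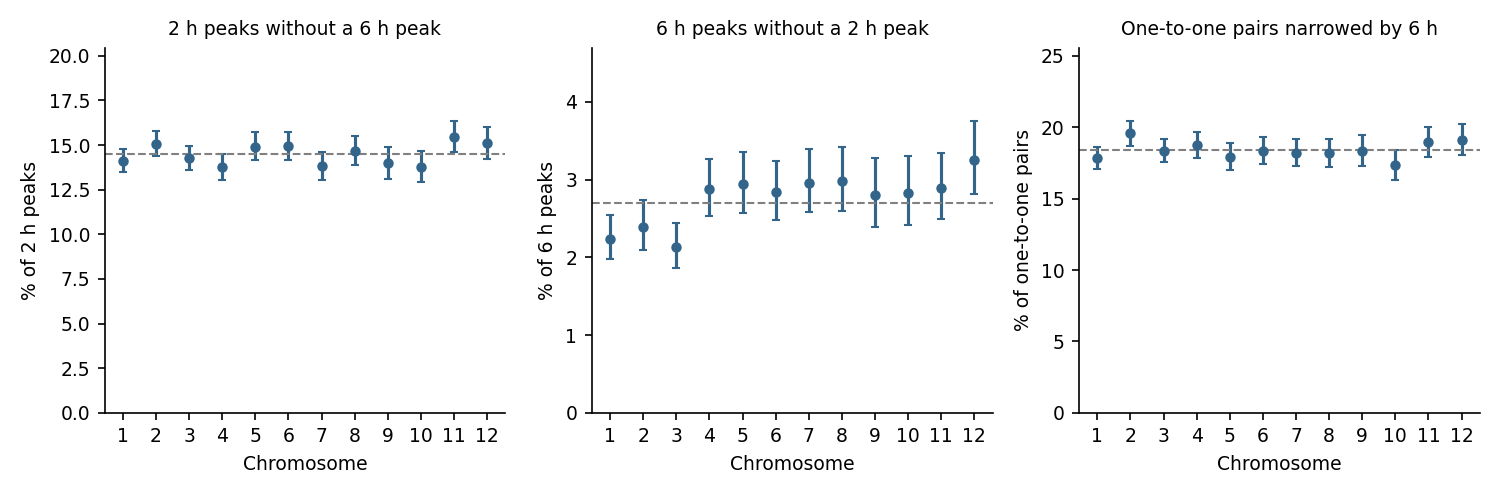
Share of closed 2 h peaks, of new 6 h peaks and of narrowed matched pairs (y axes, in percent) on each of the 12 chromosomes (x axis), with 95% Wilson intervals and the share of the whole genome as a dashed line. Closed shares stay between 13.8% and 15.5%, while new shares are lower on chromosomes 1 to 3 than on the other 9.

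Peaks that closed were narrow and weak at 2 h. Their median width was 270 bp (quartiles 222 and 434 bp), against 737 bp (437 and 1201 bp) for persisting peaks. Fold enrichment, the ratio of reads in a peak to the background that MACS2 estimated, was used as a rank within a list. Within the 2 h list, closed peaks had a median percentile of 20.4 and persisting peaks one of 56.5. The 2 h peaks were put into 10 bins of nearly equal number. Of the narrowest bin, 200 to 248 bp wide, 59.5% closed. The share fell in each wider bin, to 10.9% between 528 and 649 bp and to 0.165%, or 16 peaks, above 1689 bp. A wide peak also offers more bases at which a 6 h peak can meet it. Fold enrichment gave the same order, from 41.7% closed in the weakest bin to 8.24% in the sixth and 0.0309%, or 3 peaks, in the strongest. The share differed by each property within classes of the other. With the list divided at the median of each property, 39.5% of the narrower and weaker peaks closed, against 6.33% of the narrower but stronger, 6.81% of the wider but weaker and 0.159% of the wider and stronger peaks. The −log10 q of a peak comes from the p-value of MACS2 adjusted over all tests. It was under 2 for 949 closed peaks (6.75%), compared with 0.596% of the persisting peaks. The narrowest bin, which starts at the smallest listed width of 200 bp, held 5786 of the closed peaks. Distance to other peaks did not set them apart. The nearest persisting peak was a median of 1181 bp away from a closed peak, and 1182 bp away from a persisting one.

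**Figure D2:**
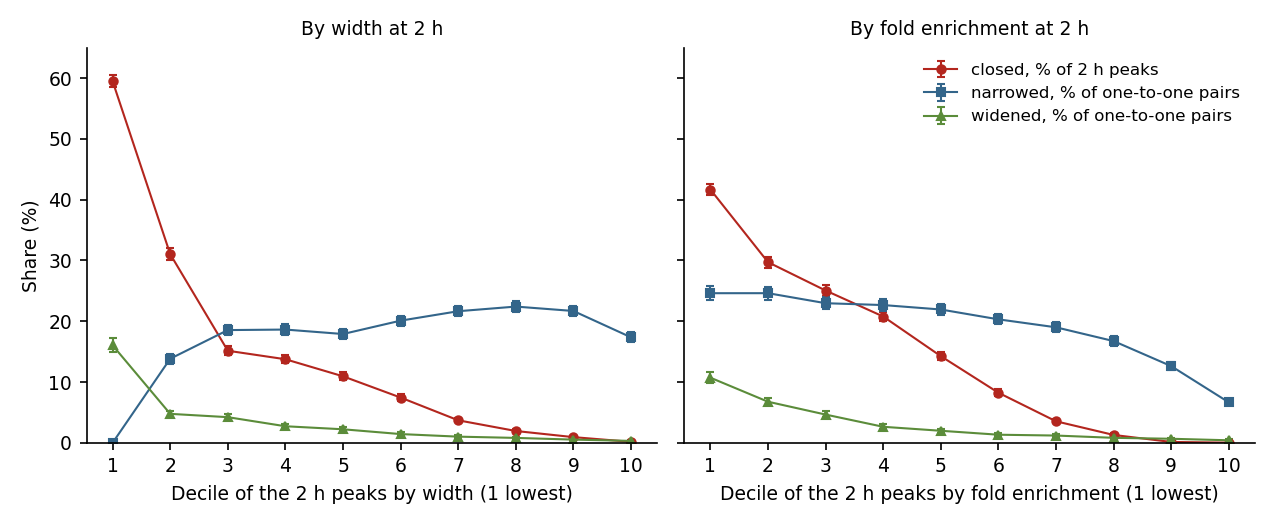
Share of 2 h peaks that closed and of matched pairs that narrowed or widened (y axis, in percent, with 95% Wilson intervals) in 10 bins of the 2 h peaks by width (left) and by fold enrichment (right), from lowest to highest. Closing falls from 59.5% to 0.165% with width and from 41.7% to 0.0309% with fold enrichment, while narrowing by width stays between 13.8% and 22.4% in all but the narrowest bin.

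Most closed peaks had a persisting peak on either side. Of all 2 h peaks 85.5% persisted, so a persisting neighbour is common for any peak. Whether closed peaks were scattered or clustered beyond that share was not tested. Neighbouring 2 h peaks with no persisting peak between them formed runs, and 9871 of the closed peaks (70.3%) stood alone. A further 22.5% came in runs of 2, and 14 runs had 5 or more. The longest, on chromosome 9 (chr9:3808012-3818784), held 7 closed peaks of 201 to 813 bp over 10.8 kb, and no 6 h peak lay in that span. All 7 also overlapped peaks of the control, cold 12 h, cold 24 h and heat 30 min lists, but 3 of them did so at heat 3 h. A run of 6 closed peaks lay on chromosome 2 (chr2:3311751-3322881), where all 6 had a control peak. Another run of 6 lay on chromosome 6 (chr6:15048170-15066597), where 4 had a control peak and 1 overlapped a heat 3 h peak. Its span of 18.4 kb held a new 6 h peak.

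Persisting peaks mostly kept their rank among the peaks and lost some width. A 2 h peak and a 6 h peak overlapped only each other in 79034 cases, referred to here as pairs. The 6 h peak was the narrower in 71.4% of the pairs and the wider in 27.7%. Its width had a median of 0.964 of the 2 h width, with quartiles of 0.864 and 1.00. A pair was taken as narrowed when the 6 h width was at most 0.8 of the 2 h width, and 14552 pairs (18.4%) met this, with an interval of 18.1% to 18.7%. By the same ratio in the other direction, a 2 h width of at most 0.8 of the 6 h width, 2049 pairs (2.59%, interval 2.48% to 2.71%) widened. The narrowed pairs included 4097 whose width fell to 0.5 of the 2 h width or less, whereas 407 pairs became at least 2 times as wide. By chromosome, narrowed pairs ran from 17.3% on chromosome 10 to 19.6% on chromosome 2. Ranks of fold enrichment at 2 h and 6 h went together over the pairs (Spearman rho 0.92), as did ranks of width (rho 0.90). Both are descriptions over 79034 pairs that share their libraries.

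Typical edges hardly moved, and a minority of them moved far. Over all pairs the left and the right edge each shifted inward by a median of 9 bp, with quartiles of 6 bp outward and 36 bp inward, but in 5% of the pairs the shift was 320 bp or more at the left edge and 322 bp or more at the right edge. Within narrowed pairs the median loss was 336 bp. In 9106 of them (62.6%), at least 90% of the loss came from a single edge, in 4562 cases the left and in 4544 the right. In every list the smallest gap between neighbouring peaks was 401 bp, so that a shorter gap was never listed. Narrowing varied with width, from 13.8% of pairs in the second bin to 22.4% in the eighth and 17.4% in the widest, and it was rarer in strong peaks, with 6.66% in the strongest bin by fold enrichment against 24.6% in the weakest. Pairs in the narrowest bin cannot meet the limit, as no listed peak was under 200 bp wide. Widened pairs started small, with a median of 342 bp at 2 h and a median percentile of 21.0.

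**Figure D3:**
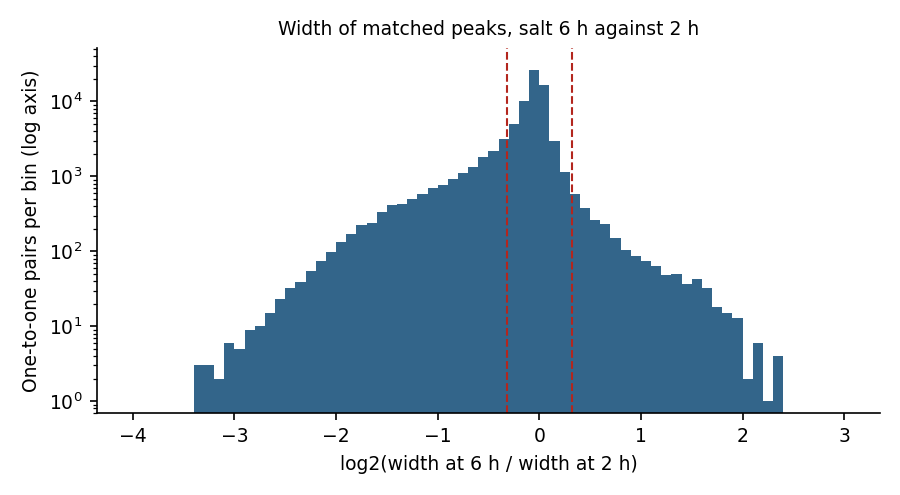
Number of pairs (y axis, log scale, bins of 0.1) by log2 of the width at 6 h over the width at 2 h (x axis), with dashed lines at a 6 h width of 0.8 of the 2 h width and at a 2 h width of 0.8 of the 6 h width. Most of the 79034 pairs lie close to equal width, and the 14552 pairs left of the lower line outnumber the 2049 right of the upper line.

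A smaller class of wide peaks broke up. At 6 h, 2667 of the 2 h peaks (2.75%) overlapped 2 or more peaks, which were 2 pieces for 2587, 3 for 77 and 4 for 3 of them. These were wide peaks, with a median of 1961 bp at 2 h, and the gap between the pieces had a median of 482 bp. No gap under 401 bp was listed, so a 2 h peak had to span at least that to count as split. Both values thus depend in part on how peaks are listed. A median of 66.7% of their bases were still open at 6 h. The reverse, a 6 h peak that spanned 2 or more 2 h peaks, was seen for 672 peaks (0.769% of the 6 h list). On each chromosome the split share was between 2.58% and 3.01%.

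Few peaks lay close to the limit of 1 bp. Of the persisting peaks 7 had under 10% of their bases open at 6 h, and 5.71% had under 50%. At the other side of the limit, 2 of the closed peaks had a 6 h peak within 100 bp, and for 60.1% the nearest was over 1000 bp away. Neighbouring 2 h peaks were at least 401 bp apart. A 6 h peak over a neighbour could thus come so near only by reaching well past it. The small number within 100 bp is therefore partly set by how peaks are listed. With at least 50% of a peak required to be covered, 19.4% of the 2 h peaks counted as closed and 3.39% of the 6 h peaks as new.

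New peaks at 6 h were few and small. They had a median width of 225 bp (quartiles 206 and 319 bp) and a median percentile of 10.96 for fold enrichment within the 6 h list. A −log10 q under 2 was found for 305 of them (12.9%), against 1.05% of the other 6 h peaks. None of the 20000 strongest 6 h peaks was new, while 18 of the 20000 strongest 2 h peaks closed. The strongest new peak lay on chromosome 4 (chr4:3651075-3651290), was 216 bp wide and had a fold enrichment of 3.49, which ranked 29513 in its list. It overlapped peaks at cold 24 h and heat 3 h, and none in the control, cold 12 h or heat 30 min lists. Next came chr2:7230164-7230393, with a fold enrichment of 3.41, which overlapped peaks in all 5 lists other than the salt lists. The new peaks at chr10:707362-707604 (3.37) and chr12:26186055-26186285 (3.15) had a control peak, so that they were missing at 2 h rather than absent without salt. The peak at chr5:27048681-27048895 (3.34) had no control peak but overlapped peaks of all 4 cold and heat lists. All 5 of these peaks were between 215 and 243 bp wide and overlapped a heat 3 h peak.

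A few closed peaks were strong. The strongest lay on chromosome 11 (chr11:12351922-12352951), with a width of 1030 bp, a fold enrichment of 5.59 and rank 406 of the 2 h list. The nearest 6 h peak was 57631 bp away. It overlapped peaks at cold 12 h and heat 3 h, and none in the control, cold 24 h or heat 30 min lists. The second strongest was on the same chromosome (chr11:12122658-12123521), had a width of 864 bp and a fold enrichment of 4.45, and overlapped peaks at cold 24 h and heat 3 h alone. Both thus lacked a control peak. The remaining 3 of the 5 strongest, chr8:17457377-17457636 (fold enrichment 4.02), chr2:5677511-5677791 (3.68) and chr2:4755837-4756174 (3.67), were 260 to 338 bp wide and had a peak in every other list except salt 6 h.

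Single pairs show how far widths moved. The largest loss was on chromosome 6, where a peak of 3781 bp at 2 h (chr6:18102447-18106227) was 1243 bp wide at 6 h, with 2599 bp lost at its right edge. A peak on chromosome 8 (chr8:20799356-20802062) went from 2707 to 265 bp, and peaks on chromosome 1 (chr1:12828569-12830933) and chromosome 12 (chr12:17809086-17811436) went from 2365 to 234 bp and from 2351 to 232 bp. The fifth, also on chromosome 1 (chr1:28974593-28976976), went from 2384 to 284 bp, with losses at both edges. In heat 3 h seedlings the bases open within these 5 spans were between 749 and 2384. Gains were smaller. The largest was on chromosome 3 (chr3:2035585-2036143), from 559 to 2019 bp, and the next on the same chromosome (chr3:30032543-30033665), from 1123 to 2375 bp. On chromosome 9 a peak of 522 bp (chr9:7087491-7088012) reached 1680 bp and a peak of 356 bp (chr9:17485144-17485499) reached 1400 bp. On chromosome 10 a peak of 444 bp (chr10:13511567-13512010) reached 1485 bp.

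Seedlings without salt showed whether a change led away from or back to the untreated state. The control, 2 h and 6 h lists were merged into 103515 regions, of which 78831 (76.2%) had a peak in all 3 lists. The most frequent change was late loss: 11057 regions (10.7%) had a peak in the control and at 2 h but not at 6 h. Early loss, with a peak in the control alone, was seen in 6588 regions (6.36%), and 641 regions (0.619%) lost their peak at 2 h and had it again at 6 h. Of the control regions without a peak at 2 h, 8.87% thus had one at 6 h. Regions without a control peak were fewer: 2338 had a peak at both salt times, 2389 at 2 h alone and 1671 at 6 h alone. Of the regions gained at 2 h, 50.5% (49.1% to 52.0%) had no peak at 6 h, compared with 12.3% (12.1% to 12.5%) of the regions that the control and 2 h had in common. Regions gained at 2 h alone were narrow, with a median of 224 bp against 318 bp for those at both salt times. Regions that the control and 2 h had in common were wider. Their median was 352 bp without a 6 h peak and 850 bp with one. A merged region spans the peaks of all its lists, so part of this order follows from the merging. The shares without a 6 h peak were not compared at equal width. The 3 lists were also given equal numbers of peaks, 87437 each. This cut the weakest control and 2 h peaks but none at 6 h. A 6 h peak whose partners were cut then counts as 6 h alone. In this setting 6119 regions had a peak at 6 h alone, against 2086 at 2 h alone, the reverse of the order with all peaks. A further 4573 had one at both salt times and 1613 in the control and at 6 h. Late loss was then seen in 7563 regions, and 31.3% of the regions gained at 2 h had no peak at 6 h, compared with 9.57% of those in common with the control. Both salt times share this control, and a peak missing from it for any reason counts as a gain at either time.

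Peaks that narrowed had been about as wide as in the control at 2 h. In 72787 cases a control, a 2 h and a 6 h peak matched one to one. The 13339 of them that narrowed from 2 h to 6 h had median widths of 772 bp in the control, 790 bp at 2 h and 400 bp at 6 h, and the median ratio of 2 h to control width was 0.997. The 1498 that widened had median widths of 418, 374 and 675 bp. Over all 72787, the median ratio to the control width was 0.998 at 2 h and 0.955 at 6 h.

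The cold and heat lists were not used to define the classes. Closed peaks met a peak of the heat 30 min list in 90.2% of cases, of the cold 24 h list in 84.7%, of the control in 83.0% and of the cold 12 h list in 82.8%, but of the heat 3 h list in 46.3% (45.5% to 47.1%). For persisting peaks the heat 3 h share was 91.2%, and the other 4 shares were between 93.6% and 97.6%. A peak in each of these 5 lists was found for 40.2% of the closed and 86.3% of the persisting peaks, and 391 closed peaks (2.78%) were in none of them. New peaks showed another order. Heat 3 h held the most of them, with 35.9% (34.0% to 37.9%), followed by cold 24 h with 32.2%, the control with 29.3%, heat 30 min with 19.4% and cold 12 h with 13.3%. None of the 5 lists had a peak at 761 of the new peaks (32.2%), and 40 had one in all. On all 12 chromosomes, new peaks were more often in the heat 3 h than in the heat 30 min list, and both closed and persisting peaks less often. Lists of 87437 peaks each, a setting added after the data were seen, lowered these shares. The cut was smallest for heat 3 h (91083 peaks listed) and largest for cold 12 h (110010) and heat 30 min (108147). The salt classes stayed those of all peaks, so the shares of the longer lists had more to lose. Closed peaks then overlapped 70.4% of the time with heat 30 min, 65.3% with the control, 63.3% with cold 24 h, 61.0% with cold 12 h and 41.0% with heat 3 h. For persisting peaks the order turned, with heat 3 h at 89.4%, the control at 89.3%, cold 24 h at 88.8%, heat 30 min at 83.5% and cold 12 h at 83.3%. New peaks did so for 33.8% with heat 3 h, 19.3% with the control, 17.1% with cold 24 h, 9.44% with heat 30 min and 7.03% with cold 12 h.

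**Figure D4:**
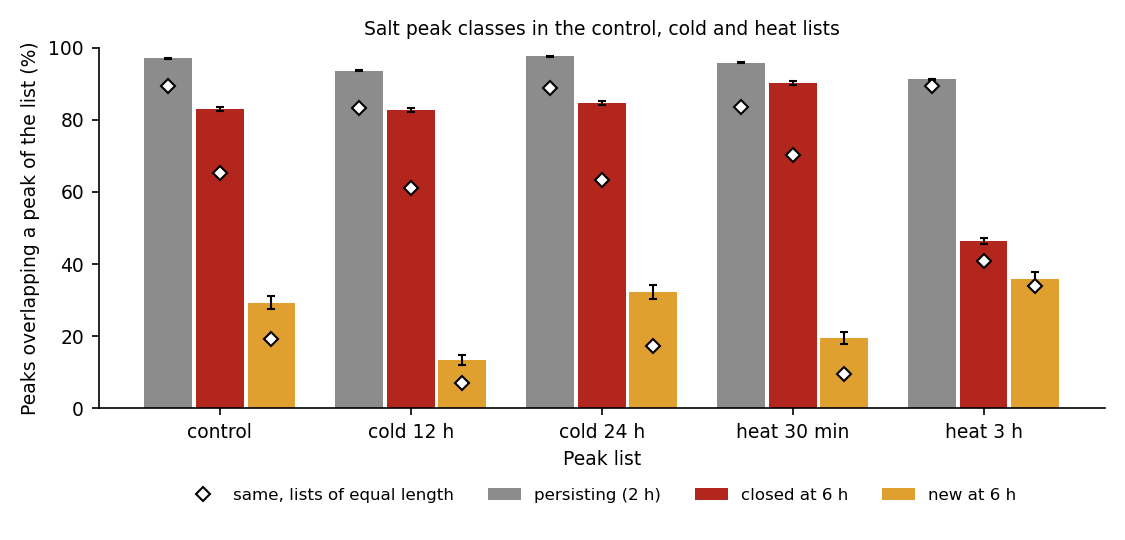
Share of persisting, closed and new peaks (y axis, in percent) that overlap a peak of the control, cold and heat lists (x axis), with 95% Wilson intervals, and diamonds for lists reduced to their 87437 strongest peaks. Closed peaks are least often in the heat 3 h list (46.3%) and new peaks most often (35.9%).

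Along the chromosomes the loss was found in every 1 Mb window counted, with all peaks of both lists. Over the genome, covered length decreased by 6.49 Mb with equal numbers of peaks and by 12.4 Mb with all peaks. No window values at equal numbers are given. In 378 windows of 1 Mb with at least 50 peaks at 2 h, the covered length was lower at 6 h in all 378, by between 6.85% and 25.7% with a median of 15.2%. All 378 had more closed than new peaks, and 377 had fewer peaks at 6 h. The share of closed peaks had quartiles of 12.7% and 16.3% over the windows. Its interval lay above the genome share in 26 windows and below it in 16. The share of closed peaks and the number of 2 h peaks in a window were nearly unrelated (Spearman rho −0.06 over 378 windows, a description, since the windows share their libraries). The highest share was 24.4% (69 of 283 peaks) at chr12:24000001-25000000. Other high windows were the end of chromosome 6 from chr6:31000001 with 23.2% of 69 peaks, chr11:12000001-13000000 with 22.4% of 143, chr11:26000001-27000000 with 21.7% of 161 and chr10:22000001-23000000 with 21.5% of 288. The window chr11:12000001-13000000 also held both of the strongest closed peaks. The lowest share was at the end of chromosome 1 from chr1:43000001 (7.14% of 56 peaks). This is a partial window, and its interval (2.81% to 17.0%) includes the genome share of 14.5%. Low shares were also seen at chr8:1000001-2000000 (8.02% of 212), chr1:26000001-27000000 (8.24% of 279), chr4:27000001-28000000 (8.52% of 317) and chr9:10000001-11000000 (8.75% of 160). The last of these was the only window with more peaks at 6 h (163) than at 2 h (160).

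**Figure D5:**
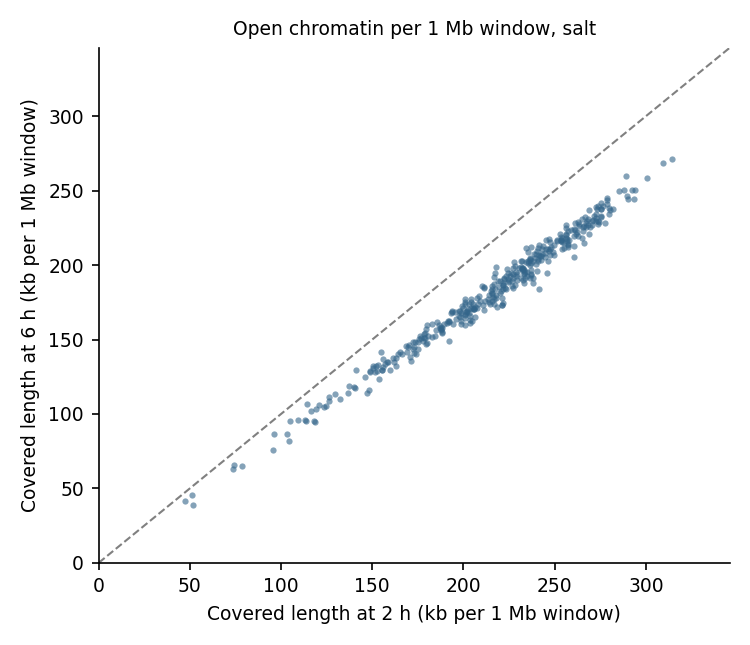
Covered length at 6 h against covered length at 2 h (kb) in 378 windows of 1 Mb, each point a window, with the line of equal length dashed. All 378 points lie below the line, and the median change is −15.2%.

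New peaks were more frequent inside the chromosomes than near their ends. They were 3.18% (2.99% to 3.38%) of the 6 h peaks at 10 Mb or more from the nearest chromosome end, taken as the outermost peak of any list, and 2.36% (1.99% to 2.80%) within 1 Mb of it. In between, the share was 2.09% from 1 to 2 Mb, 2.20% from 2 to 5 Mb and 2.68% from 5 to 10 Mb. The share of new peaks was higher at 10 Mb or more than under 5 Mb on 11 of the 12 chromosomes. The differences were uneven, from 2.78% against 2.64% on chromosome 10 to 4.71% against 2.10% on chromosome 12. The chromosomes share their libraries, so this count is a description. No values at equal numbers of peaks or equal width are given. Chromosome 11 was the exception with 2.78% against 2.95%. Closed peaks showed no such rise inside the chromosomes. Their share was 16.0% within 1 Mb, 14.1% between 1 and 2 Mb, 14.8% between 2 and 5 Mb, 13.9% between 5 and 10 Mb and 14.6% beyond.

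The cold and heat time courses, whose times differ from those of salt, also lost more peaks than they gained. From cold 12 h to 24 h 14.8% of the peaks closed (14.6% to 15.0%), and from heat 30 min to 3 h 23.8% did. In salt the share was 14.5% (14.3% to 14.7%). New peaks were 7.10% of the cold 24 h list and 4.80% of the heat 3 h list, compared with 2.70% for salt 6 h. Widened pairs were 9.99% in cold and 6.00% in heat, against 2.59% in salt, and narrowed pairs 20.4% and 34.7% against 18.4%. Equal numbers of peaks within each time course were reached by cutting the early list alone. The closed shares were then 12.3% in cold (12.1% to 12.5%), 18.3% in heat and 11.5% in salt (11.3% to 11.7%). These intervals cover counting error over peaks and do not compare the treatments. The new shares became 10.7% in cold, 13.5% in heat and 9.04% in salt, and the widened shares 9.83%, 5.28% and 2.23%. With 1 list per time point, differences between the time courses have no replicate check.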

How the data were processed

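Per the paper's methods, the authors mapped the FAIRE-seq reads with Bowtie2 (IRGSP 1.0), filtered out those at organelle insertions, those with a mapping score under 10 and duplicates, and ran MACS2 for broad peaks. Peaks under 1 RPM in any replicate are stated as removed. Whether replicates were pooled is not stated. The deposited fold enrichment (a ratio to the MACS2 background) and the deposited −log10 q are the authors' values. Fold enrichment was used as a rank within a list, and −log10 q as a filter. RNA-seq libraries were not analysed here.

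Peaks were matched by at least 1 bp, and shares given 95% Wilson intervals. The matching was tested on 5000 simulated places (7 of 7 quantities recovered), and bedtools 2.31.1 gave the same 3 totals. Named regions are the 5 strongest closed and new peaks, the 5 pairs that lost and gained most bases, the 3 longest runs on different chromosomes and the 5 highest and lowest windows. No genes are named, since the gene table at hand is for another assembly. Members, classes and rules were chosen with earlier results of these data known. Scripts ran in Python 3.11.15 with scipy 1.17.1 (rank correlations), numpy 2.4.6 (arrays) and matplotlib 3.10.9 (figures).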

Additional observations from a re-analysis of the deposited data

How the results depend on the processing

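With equal numbers of peaks, the closed share was 11.5%, the new share 9.04%, the narrowed share 17.9%, the change in covered length −6.49 Mb, the share of 2 h bases open at 6 h 83.1% and the share of regions with a peak in control, 2 h and 6 h 72.4%, against 14.5%, 2.70%, 18.4%, −12.4 Mb, 81.3% and 76.2%. Among the 20000 strongest peaks, 0.09% of the 2 h peaks closed, 0% of the 6 h peaks were new, 9.86% of the pairs narrowed and 91.1% of the 2 h bases were open at 6 h. With 50% of a peak required to be covered, the closed share was 19.4% and the new share 3.39%. Narrowed pairs were 30.7% at a limit of 0.9 and 5.18% at a limit of 0.5. Joining peaks under 200 bp apart changed nothing, as no gap was under 401 bp. Joining at under 1000 bp, added after the data were seen, gave 10.6% closed, 2.20% new, 21.5% narrowed, 80.3% of 2 h bases open at 6 h and 82.2% of regions in all 3 lists, and covered length still fell, by 16.5 Mb. When peaks had to reach a −log10 q of 2, 14.4% closed and covered length changed by −12.3 Mb. The closed share was above the new share wherever both were computed, which leaves out the limits on narrowing. Covered length fell with equal numbers, with the q limit and after joining, and was not computed for the other settings. Regions with a peak at 6 h alone outnumbered those at 2 h alone with equal numbers of peaks (6119 against 2086), the reverse of all peaks (1671 against 2389). Equal numbers cut weak peaks from the control and 2 h lists alone, as the 6 h list set the number. Cutting the partner of a 6 h peak itself adds to the 6 h counts. No paired analysis was possible because each condition has 1 peak list and no value per replicate, and for the same reason no replicate could be left out. The part of sequencing depth was not tested.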
